A study of Arabidopsis thaliana and Nicotiana tabacum with 16 samples.

Results

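The 3 Ribo-seq libraries of 14-day old Arabidopsis seedlings digested with RNase I were compared with the 3 of 8-day old seedlings. These 6 libraries were picked from the 16 of the series by their labels: RNase I as the nuclease, no rRNA depletion, and an age of 8 or 14 days. The repeat library at 700 U was left out. All 6 were made from wild type Col-0 seedlings under 100 µmol m-2 s-1 of light at 20 °C. The 8-day seedlings grew in 16 h of light on ½ Murashige and Skoog medium with 1% sucrose, and RNase I was added at 62.5, 125 or 250 U per mL of their lysates. The 14-day seedlings grew in 12 h of light on ½ Murashige and Skoog medium, for which the labels name no sucrose, and their lysates received 400, 550 or 700 U. Age, day length, medium and RNase I dose therefore changed together between the groups and cannot be told apart. According to the paper, its samples date from various stages of optimizing the protocol and from several experiments. Any difference in experiment or library preparation between the groups cannot be told apart from age either. The sources used here do not state the time of harvest. Each dose was 1 library and no separate cultures are named, so the 3 doses stood as the repeats of an age group, the spread within a group includes any effect of dose, and p-values measure only the spread between these libraries.

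Ribo-seq sequences the mRNA fragments that translating ribosomes shield from a nuclease. The number of fragments over a coding sequence (CDS) depends on both the amount of the mRNA and the density of ribosomes on it. Plant seedlings hold ribosomes of the cytosol, the chloroplast and the mitochondria, and each kind reads the messages of its own compartment. Genes for sugar supply, growth, photosynthesis and the circadian clock are known to respond to sucrose, day length and age in seedlings.

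The 8-day libraries held 26075055 to 36158938 reads after trimming and, in order of dose, 4431776, 4522605 and 6739863 CDS counts. The 14-day libraries held 29815631 to 38109869 reads and 2503676, 2338819 and 3273178 CDS counts. The 14-day libraries were thus the shallower group. The shoot markers RBCS1A, LHCB1.3, PSAF, CA1 and GLDP1 were measured in all 6 libraries, and 4 markers of flowers and pollen had at most 2 counts in any library. Levels are CPM, the counts of a gene relative to all counts of its library, after TMM scaling, which removes differences in library composition, and are relative within a library.

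The share of reads from rRNA was 80.5, 83.6 and 77.7% in the 8-day libraries and 87.6, 87.7 and 88.4% in the 14-day libraries. The groups did not overlap, with means of 80.6% ± 2.97 and 87.9% ± 0.40 (SD, n = 3 each). Chloroplast (Pt) genes took 21.5, 20.8 and 20.5% of the CDS counts at 8 days and 15.2, 14.9 and 13.6% at 14 days. The chloroplast share was thus lower in every 14-day library, with means of 20.9% ± 0.51 and 14.6% ± 0.84 (SD, n = 3 each) and a difference of −6.37 percentage points. Mitochondrial (Mt) genes took 0.828, 0.832 and 0.814% at 8 days against 0.483, 0.491 and 0.393% at 14 days, a ratio of 1.81 between the means. Of the reads that were not rRNA, 17.8% ± 0.94 mapped to the chloroplast genome at 8 days and 10.2% ± 0.38 at 14 days (SD, n = 3 each). Each of these 4 differences had a 2-sided exact permutation p of 0.1, the smallest that 3 against 3 libraries can give. The last of these shares is taken of all reads that were not rRNA, unmapped reads included. Of the mapped reads that were not rRNA, 19.8% ± 0.61 came from the chloroplast genome at 8 days and 12.9% ± 0.58 at 14 days (SD, n = 3 each). In the shallowest library, at 550 U, the 95% Clopper-Pearson interval of the chloroplast share was 14.86 to 14.95%, which covers counting error only. In bulk seedlings, fewer cells of a type and less RNA per cell cannot be told apart.

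**Figure D1:**
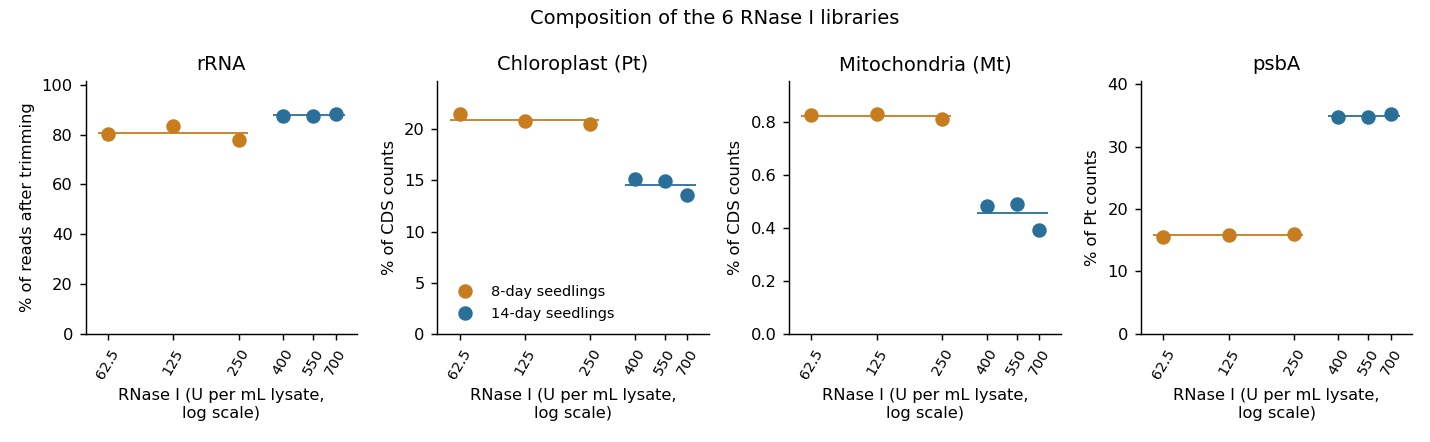
Percent of reads or CDS counts (y axes) against RNase I dose in U per mL of lysate (x axes, log scale) in the 6 libraries, with a line at each group's mean. The 14-day libraries lie above the 8-day libraries for rRNA and for the psbA share of Pt counts, and below them for the Pt and Mt shares.

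Across genes, 15460 of the 27628 entries had at least 10 counts in at least 3 of the 6 libraries and were tested with edgeR's quasi-likelihood test. At an adjusted p under 0.05, 7796 entries changed (50.4% of those tested), 3913 of them higher (25.3%) and 3883 lower (25.1%) at 14 days. The 2 groups of libraries did not overlap in CPM for 56.6% of the entries, with all 14-day libraries higher for 28.0% and lower for 28.5%. In a test of a fold above 1.5, 20.4% of the entries passed. A change of at least 2-fold was fitted for 1505 of the entries that rose and 1508 of those that fell, and one of at least 8-fold for 59 and 147. The typical variation between libraries of a group was 7.98% (biological coefficient of variation of the edgeR fit). The calls were unlike between compartments: of the 15336 nuclear entries tested 3910 rose and 3773 fell, of the 84 chloroplast entries 2 rose and 80 fell, and of the 40 mitochondrial entries 1 rose and 30 fell. The median log2 fold change was 0.01 over all entries, −1.09 over the chloroplast entries and −0.75 over the mitochondrial entries.

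**Figure D2:**
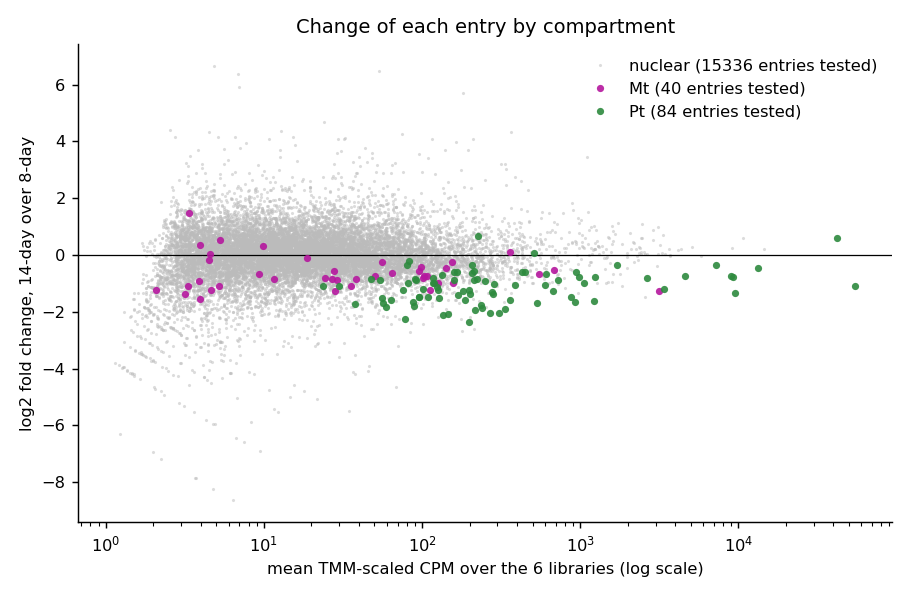
Log2 fold change of 14-day over 8-day seedlings (y axis) against the mean TMM-scaled CPM of the 6 libraries (x axis, log scale), 1 point per tested entry. The chloroplast and mitochondrial points lie mostly below 0, while the nuclear points spread to both sides.

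Among nuclear genes with a mean of at least 50 counts, past the test and with no overlap between the groups, PP2-A13 and BT2 had the largest increase at 14 days. PP2-A13, a phloem protein 2 family member (AT3G61060, CDS span chr3:22603166-22604333, TAIR10), had 0.458, 0.901 and 1.81 CPM at 8 days and 109, 104 and 105 CPM at 14 days. Its log2 fold change was 6.47 ± 0.20 (SE, adjusted p = 8.27e-36). BT2 (AT3G48360, chr3:17908485-17910471), a BTB and TAZ domain protein of nutrient and sugar responses, had 10.3, 6.98 and 4.37 CPM against 362, 351 and 363 CPM, a 52.1-fold difference (log2 5.70 ± 0.12, adjusted p = 3.48e-44). The lowest 14-day value of either gene was far above its highest 8-day value. Among the other 8 nuclear genes with the largest increase were the putative sugar phosphate exchanger AT2G20670 (19.4-fold), the dormancy-associated DYL1 (17.37-fold), the ACT-domain protein ACR9 (16.95-fold) and the B-box zinc finger protein BBX14 (16.9-fold). The kelch repeat protein AT1G80440 (25.8-fold), the aluminium-induced protein AT3G15450 (20.2-fold), NDL1 of the N-MYC downregulated-like family (17.1-fold) and the stress-induced protein AT2G15960 (16.9-fold) completed this group. Overlap between the age groups was not allowed by the rule that picked them.

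By the same rule, ELIP1, ADH1 and FTM1 were among the 10 nuclear genes with the largest decrease. The early light-induced protein gene ELIP1 had 124, 144 and 127 CPM at 8 days and 3.54, 5.47 and 6.49 CPM at 14 days, so that it fell 24.9-fold. ADH1, the alcohol dehydrogenase of fermentation (chr1:28975509-28977213), had 64.2, 72.5 and 77 CPM against 4.33, 3.79 and 3.71 CPM, an 18.1-fold decrease (log2 −4.18 ± 0.19, adjusted p = 1.60e-27). The stearoyl-ACP desaturase gene FTM1 fell 45.2-fold from 61.4, 79.1 and 63.3 CPM to 1.18, 0.421 and 2.47 CPM. The camalexin synthesis gene PAD3 (23.7-fold), the anthocyanin acyltransferase gene AACT1 (27.1-fold), the clock gene PRR9 (31.8-fold) and the MATE efflux protein gene AT2G04050 (27.6-fold) also fell. So did AT5G13210, which encodes an uncharacterized conserved protein (46.7-fold), the lectin gene AT1G52070 (43.4-fold) and the P-loop hydrolase gene AT2G18193 (33.3-fold). The first and the second of these 3 had 1 library at 0 counts among the 14-day libraries. Among these 10 genes, at least FTM1 and PRR9 had fewer than 10 counts in every 14-day library. They were tested only through their counts in the 8-day libraries.

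**Figure D3:**
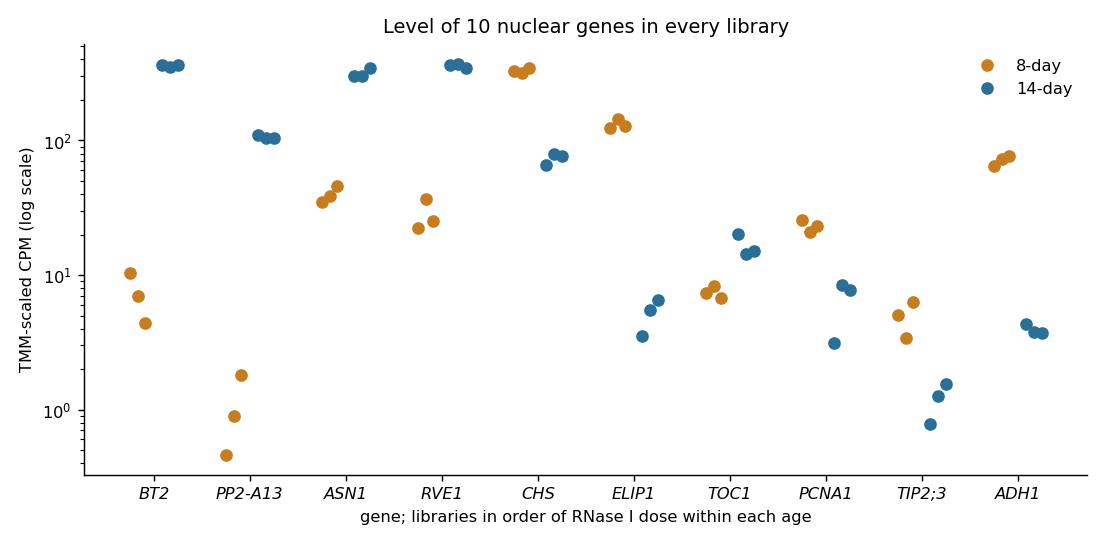
TMM-scaled CPM (y axis, log scale) of 10 nuclear genes in each library, with the libraries in order of dose within each age group. BT2, PP2-A13, ASN1, RVE1 and TOC1 are higher in all 14-day libraries, and CHS, ELIP1, PCNA1, TIP2;3 and ADH1 are lower in all of them.

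Genes that seedlings are known to switch on when sugar is scarce rose at 14 days: 14 of the 16 tested members of the sugar-starvation list rose, 2 fell, and the median log2 fold change was 1.80. For this and the other lists, the counts stand against 25.3% of all tested entries that rose and 25.1% that fell, and the median against 0.01 over all entries. With at least 50 counts in every library, 10 members could be tested and all 10 rose. ASN1, an asparagine synthetase used when carbon is short, had 34.6, 38.5 and 45.5 CPM at 8 days and 303, 301 and 343 CPM at 14 days. Its 7.89-fold increase (log2 2.98 ± 0.09, adjusted p = 1.18e-36) was close to the 9.09-fold increase of TPS8, a trehalose-6-phosphate synthase-like gene. DIN11 went the other way, with 8.94, 6.76 and 4.82 CPM at 8 days and 1.58, 2.52 and 2.16 CPM at 14 days (log2 −1.67 ± 0.41, adjusted p = 5.52e-04), and so did DIN9 (log2 −0.69 ± 0.26, adjusted p = 0.0228). Both were named after their values were seen, as the exceptions within the list. DIN11 was tested only through its counts in the 8-day libraries. Without the 8-day library at the lowest dose, 15 members could be tested, of which 14 rose and 0 fell. The call of DIN9 was thus lost as well. Without either of the other 8-day libraries, 15 could be tested, of which 14 rose and 1 fell.

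Enzymes that break down the branched-chain amino acids leucine, isoleucine and valine in mitochondria rose as well, with 8 of 11 higher, 1 lower and a median of 1.09. MCCA, a subunit of methylcrotonyl-CoA carboxylase, had 38.04, 34.5 and 40.7 CPM at 8 days and 107, 109 and 107 CPM at 14 days, a 2.84-fold increase. BCAT-2, an aminotransferase of the first step, rose 3.58-fold, AT1G21400 of the branched-chain ketoacid dehydrogenase rose 2.84-fold, and DIN4 of the same complex rose 2.45-fold. The exception was D2HGDH, a hydroxyglutarate dehydrogenase, at log2 −0.70 ± 0.22 (adjusted p = 5.57e-03).

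Genes known to be induced by sugar, including those of anthocyanin synthesis, fell: 18 of 19 tested fell, none rose, and the median was −2.20. The count depended on the filter: without any one of the 8-day libraries, at 62.5, 125 or 250 U, 10 members could be tested and 9 were called, and with at least 50 counts in every library 4 were tested and called. The other 9 members were tested only through their counts in the 8-day libraries. CHS, the entry enzyme of flavonoid synthesis, had 331, 316 and 345 CPM at 8 days and 65.3, 78.7 and 76.3 CPM at 14 days, a 4.50-fold decrease. GPT2, a glucose-6-phosphate translocator of plastids (chr1:22824527-22826456), had 11.5, 14.6 and 12.1 CPM at 8 days and 0 counts in all 3 libraries at 14 days. Against a floor of 3 counts per library it was at least 11.3-fold lower. PAP1, the MYB factor that switches on anthocyanin genes, had 1 count in all at 14 days, and the ratio of 8-day over 14-day counts was 32.8 (95% interval 5.66 to 1314, counting error only). The anthocyanin glucosyltransferase gene AT4G14090 had a ratio of 21.4 (5.73 to 179.6) and the beta-amylase gene BAM5 one of 22.7 (3.86 to 918). The member that did not pass the test was F3PH, a flavonoid hydroxylase gene, with 5.04, 9.01 and 6.78 CPM against 5.51, 5.47 and 3.399 CPM.

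Among the genes of starch metabolism 7 of 14 fell and 1 rose (25.1% and 25.3% over all entries), with a median of −0.37. The gene that rose was CT-BMY (BAM3), the plastid beta-amylase of leaf starch breakdown, from 563, 558 and 565 CPM to 1382, 1396 and 1391 CPM, a 2.47-fold increase. The 8-day and 14-day values of this gene were each within a narrow range. The alpha-amylase gene AMY3 fell 3.34-fold, the phosphorylase gene PHS1 3.04-fold and RCP1, the maltose exporter gene MEX1, 1.83-fold.

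In nitrogen assimilation 4 of 12 tested genes rose and 5 fell (25.3% and 25.1% over all entries), and the first enzymes of the pathway moved in opposite directions. NIA2, the main nitrate reductase, had 2044, 2108 and 2072 CPM at 8 days and 4053, 4073 and 4307 CPM at 14 days. NIR1, the nitrite reductase that follows it, had 522, 513 and 538 CPM against 209, 193 and 214 CPM. NIA2 thus rose 2.00-fold and NIR1 fell 2.55-fold. The glutamate dehydrogenase genes GDH1 (log2 0.90) and GDH2 (0.35) and UPM1 (0.45), of siroheme synthesis, were the other genes that rose. The glutamine synthetase genes GLN1;1 (log2 −1.11) and GLN1;3 (−0.95), the glutamate synthase gene GLT1 (−0.98) and the nitrate transporter gene NRT1.1 (−0.55) were the other genes that fell.

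Members of the circadian clock list were split, with 8 of 15 tested higher (25.3% over all entries), 4 lower, which is near the 25.1% over all entries, and a median of 0.53. GI, which acts in the evening in light-grown plants (chr1:8062398-8067444), had 8.25, 9.24 and 10.7 CPM at 8 days but 1 count in all at 14 days, a count ratio of 78.2 (95% interval 13.8 to 3108, counting error only). RVE1, a MYB-like factor linked to the clock (chr5:5690438-5692435), had 22.2, 37.0 and 25.3 CPM against 363, 373 and 347 CPM, a 12.9-fold increase. The morning gene PRR9 fell from 26.4, 28.4 and 30.0 CPM to 0.787, 1.26 and 0.618 CPM. GI and PRR9 were tested only through their counts in the 8-day libraries. Without any one of the 8-day libraries 13 members of the list could be tested, of which 8 rose and 2 fell. The groups did not overlap for GI, RVE1 and PRR9, as for 56.6% of all tested entries. These 3 genes were picked for their large change, and the rule that picked PRR9 allowed no overlap. TOC1, a repressor that peaks in the evening, rose 2.21-fold, the morning factors LHY and CCA1 rose 1.69-fold and 1.44-fold, and LNK1 (AT5G64170) and GRP8 fell 6.95-fold and 2.82-fold.

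The evening element is a short motif known from promoters of clock-controlled genes with an evening peak. Its letters AAATATCT, searched on both strands, occurred in the 250 bases upstream of the gene start for 9 of the 20 clock genes and for 4.79% of all 27419 nuclear entries with a window. Of the 5 clock genes with the motif that were tested, 2 rose (TOC1 and COL2), 1 fell (GRP8), and LUX and GRP7 did not pass the test. The windows of TOC1 (chr5:24674713-24674962 on the plus strand) and GRP8 (chr4:18275217-18275466 on the minus strand) are shown because both hold the motif and their counts moved in opposite directions; the sequences are from RefSeq TAIR10.1, 5′ to 3′ toward the gene, with the motif in capitals.
TOC1: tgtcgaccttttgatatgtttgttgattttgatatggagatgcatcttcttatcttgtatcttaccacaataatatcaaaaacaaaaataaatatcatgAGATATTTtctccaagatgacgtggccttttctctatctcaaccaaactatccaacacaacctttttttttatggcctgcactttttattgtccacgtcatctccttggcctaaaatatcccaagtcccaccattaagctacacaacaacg
GRP8: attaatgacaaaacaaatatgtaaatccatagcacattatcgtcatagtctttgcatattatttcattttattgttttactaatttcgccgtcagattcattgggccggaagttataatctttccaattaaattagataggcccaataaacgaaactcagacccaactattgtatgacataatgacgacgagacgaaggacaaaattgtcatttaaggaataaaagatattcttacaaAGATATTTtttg
The matches are a description of these windows only.

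Genes of DNA replication and division fell together. All 12 members of the cell division list fell (median −1.38), against 25.1% of all entries. With at least 50 counts in every library, 2 members could be tested, and both fell. PCNA1, the sliding clamp of DNA polymerase, had 25.7, 21.0 and 23.2 CPM at 8 days and 3.15, 8.41 and 7.73 CPM at 14 days. TSO2, a small subunit of ribonucleotide reductase, had 81.6, 97.3 and 98.6 CPM against 23.6, 30.7 and 27.8 CPM. Both fell past the spread of the doses, by 3.58-fold and 3.39-fold, as did the cyclin-dependent kinase genes CDKB2;2 (3.21-fold) and CDKB1;1 (2.79-fold).

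Of the 23 replication-dependent histone genes, whose proteins package new DNA, 17 fell, 1 rose and the median was −0.86. Of the 11 with 50 counts or more in each library, 10 fell. The H3 gene HTR1 (AT5G65360) had 83.2, 82.5 and 71.1 CPM at 8 days and 20.9, 23.1 and 23.5 CPM at 14 days, a 3.48-fold decrease. The H3 genes HTR2 (AT1G09200) and HTR9 (AT5G10400) fell 3.37-fold and 3.01-fold, and the H2A gene HTA10 fell 2.78-fold. The gene that rose was the H2B gene HTB3, with 4.35, 6.31 and 4.97 CPM against 9.45, 11.8 and 8.04 CPM (log2 0.89 ± 0.30, adjusted p = 0.0107). Histone genes of a class are nearly identical and reads that match several copies were counted, so the values of single copies are uncertain.

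The histone octamer CGCGGATC is a motif known from histone promoters of plants. Searched on both strands, it occurred in the upstream window of 7 of the 23 histone genes and of 0.135% of all nuclear entries. Of the 7 genes with it 6 fell and none rose (median −1.47), and of the 16 without it 11 fell and 1 rose (median −0.57); this difference was not tested. The windows of HTR1 (chr5:26120582-26120831 on the minus strand), HTR2 (chr1:2972335-2972584 on the minus strand) and HTA10 (chr1:18926561-18926810 on the plus strand) from RefSeq TAIR10.1 are shown because they fell and hold the octamer, which is in capitals on either strand.
HTR1: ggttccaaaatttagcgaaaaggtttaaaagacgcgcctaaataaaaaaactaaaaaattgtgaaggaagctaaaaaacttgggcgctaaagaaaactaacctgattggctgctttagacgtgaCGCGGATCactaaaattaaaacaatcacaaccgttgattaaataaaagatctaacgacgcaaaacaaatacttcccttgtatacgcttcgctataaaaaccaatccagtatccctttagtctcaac
HTR2: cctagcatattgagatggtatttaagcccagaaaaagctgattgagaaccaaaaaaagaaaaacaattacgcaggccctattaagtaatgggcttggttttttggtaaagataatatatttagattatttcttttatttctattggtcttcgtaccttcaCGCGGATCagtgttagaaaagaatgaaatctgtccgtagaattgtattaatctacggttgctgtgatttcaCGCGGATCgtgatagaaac
HTA10: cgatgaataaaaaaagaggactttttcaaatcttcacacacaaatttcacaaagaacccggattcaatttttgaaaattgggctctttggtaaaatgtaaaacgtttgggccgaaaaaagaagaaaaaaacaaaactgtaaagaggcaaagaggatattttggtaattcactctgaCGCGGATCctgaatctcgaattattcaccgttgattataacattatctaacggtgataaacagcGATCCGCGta
HTR2 and HTA10 hold 2 matches each and HTR1 holds 1.

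Of the 197 tested cytosolic ribosomal protein genes 136 fell, 8 rose and 53 did not pass the test, with a median of −0.40. AT3G55750, of the L35Ae family, had 182, 169 and 161 CPM at 8 days and 64.2, 76.6 and 57.8 CPM at 14 days. AT2G42710, a member of the L1p/L10e family, fell 3.04-fold and the ubiquitin-ribosomal protein fusion gene AT1G23410 fell 2.71-fold. RPL18AA, annotated as a 60S protein L18a, rose from 11.9, 10.4 and 11.5 CPM to 40.5, 42.9 and 59.6 CPM, a 4.27-fold increase. The 7 others that rose did so by at most 0.57 on the log2 scale. Of 16 translation factor genes 10 fell, 3 rose and 3 did not pass the test (median −0.39): the elongation factor 1A gene AT5G60390 fell 2.14-fold, elongation factor 2 (LOS1) fell 1.61-fold, and EF1BB1, EF1BB4 and EIF4A1 rose by 0.37, 0.35 and 0.25 on the log2 scale. AT5G12110 of elongation factor 1B fell 6.46-fold, from 16.5, 11.04 and 11.5 CPM to 3.15, 1.68 and 1.24 CPM. This gene was tested only through its counts in the 8-day libraries.

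Site II elements with the core TGGGCC are known from promoters of ribosomal protein genes. On both strands, 113 of the 212 cytosolic ribosomal protein genes held the core in the upstream window, against 13.7% of all nuclear entries, and 42 held the telo-box AAACCCTA, against 4.47%. With the core 78 of 107 tested genes fell (median −0.41), and without it 58 of 90 fell (median −0.39). The window of AT3G16780 (chr3:5708576-5708825 on the plus strand, RefSeq TAIR10.1), which fell from 79.8, 91.02 and 90.11 CPM to 37.4, 40.8 and 46.4 CPM, shows a pair of such cores in capitals, and was named after its values were seen.
AT3G16780: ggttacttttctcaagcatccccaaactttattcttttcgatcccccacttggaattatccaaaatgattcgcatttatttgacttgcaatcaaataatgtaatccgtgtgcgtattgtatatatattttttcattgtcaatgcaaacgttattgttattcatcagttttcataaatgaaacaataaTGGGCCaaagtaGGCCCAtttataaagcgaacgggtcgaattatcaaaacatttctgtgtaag
The second core is on the opposite strand. Of the nuclear-encoded proteins of the plastid ribosome, 14 of 34 tested fell and 2 rose, with a median of −0.10; the difference from the cytosolic list was not tested. RFC3 fell 1.69-fold, AT1G80620 1.51-fold and RPL15 1.44-fold, while AT5G24490 rose 1.41-fold and AT3G54210 rose by 0.25 on the log2 scale. AT1G80620 no longer passed the test without the 400 U library (log2 −0.41, adjusted p = 0.107).

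**Figure D4:**
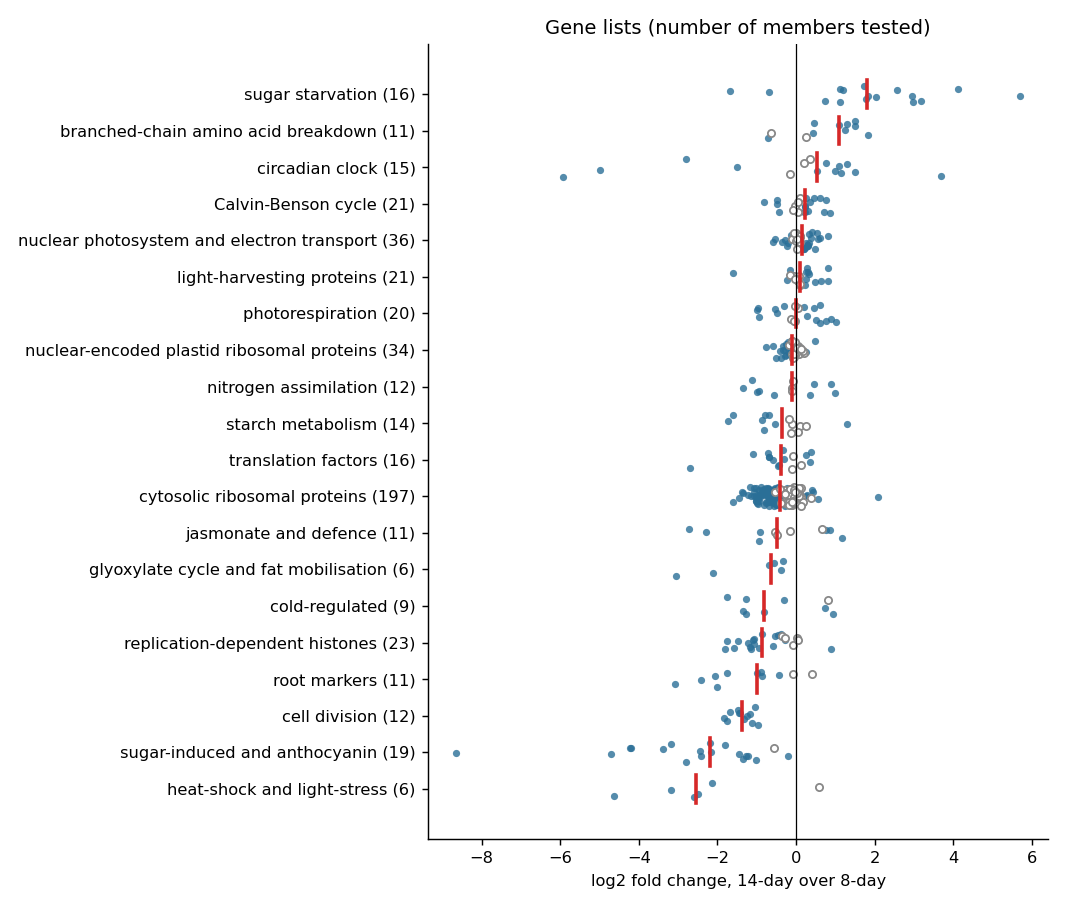
Log2 fold change of 14-day over 8-day seedlings (x axis) for each tested member of 20 gene lists (y axis, number tested in brackets), filled where the adjusted p is under 0.05 and open otherwise, with a bar at the list's median. The sugar-starvation list lies farthest to the right and the heat-shock and light-stress list farthest to the left; the point near −8.64 is the fitted value of GPT2, which had no count at 14 days.

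Nuclear genes of photosynthesis changed by small steps in both directions. Of 21 light-harvesting genes 10 rose and 3 fell (median 0.10), of 36 genes for photosystem subunits and electron transport 18 rose and 7 fell (median 0.15), and of 21 Calvin-Benson cycle genes 12 rose and 4 fell (median 0.22), against 25.3% that rose and 25.1% that fell over all entries. LHCB2.3, of the major antenna, had 610, 637 and 593 CPM at 8 days and 1019, 1046 and 1190 CPM at 14 days, and its antenna relatives LHB1B1 and AT1G76570 rose 1.56-fold and 1.75-fold. LHCB4.3, an antenna protein of photosystem II, fell 3.06-fold from 53.2, 62.2 and 58.2 CPM to 18.1, 19.8 and 18.9 CPM. LHCB6 (log2 −0.24) and LHCB3 (−0.16) were the other antenna genes that fell. The plastocyanin gene PETE1 rose 1.75-fold, and the photosystem I genes PSAN and PSAH-1 rose 1.52-fold and 1.48-fold, whereas PSBTN of photosystem II fell 1.50-fold.

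In the Calvin-Benson cycle, PRK, the kinase that regenerates the CO2 acceptor, rose 1.71-fold from 1487, 1516 and 1558 CPM to 2572, 2499 and 2721 CPM. GAPA, a chloroplast glyceraldehyde phosphate dehydrogenase, and CP12-1, the small protein that binds both enzymes, rose 1.65-fold and 1.82-fold. The phosphoglycerate kinase genes AT1G56190 and PGK1 fell by 0.82 and 0.48 on the log2 scale, and RPI3 and TKL1 fell by 0.48 and 0.45. RCA, which encodes Rubisco activase, had 8126, 8530 and 8652 CPM against 12631, 12667 and 13406 CPM, a 1.53-fold increase. The small subunit gene RBCS1A rose 1.16-fold, while RBCS3B had 5559, 5948 and 6089 CPM at 8 days and 5764, 5650 and 5865 CPM at 14 days and did not pass the test (adjusted p = 0.678). RBCS and LHCB1 copies share reads, which leaves their single values uncertain. Among 20 genes of photorespiration, the recycling of the side product of Rubisco, 9 rose and 6 fell (median 0.01), the latter near the 25.1% over all entries: the peroxisomal aminotransferase gene AGT rose 2.03-fold, and the transporter gene DiT1, the glutamate synthase gene GLU1 and the dehydrogenase subunit gene mtLPD2 fell 1.99-fold, 1.96-fold and 1.94-fold. Among further abundant genes, the antenna genes CAB1 and CAB2 rose 1.19-fold and 1.23-fold. PSBR, of photosystem II, did not pass the test (log2 0.08 ± 0.05, adjusted p = 0.236). AT3G62120, annotated as a class II aminoacyl-tRNA synthetase family protein and thus no photosynthesis gene by its annotation, fell 1.25-fold.

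In the chloroplast, 80 of 84 tested entries fell and only psbA and psbN rose among those tested. psbA, the gene of D1, the photosystem II protein that is constantly replaced in the light, (Pt:386-1444), had 33852, 33493 and 33381 CPM at 8 days and 52001, 50881 and 48523 CPM at 14 days, a 1.50-fold increase (log2 0.59 ± 0.04, adjusted p = 6.76e-20). rbcL, the large subunit of Rubisco (Pt:54958-56394), had 77224, 74512 and 73204 CPM against 36916, 36136 and 32749 CPM, a 2.13-fold decrease (log2 −1.09 ± 0.04, adjusted p = 1.35e-31). The order of the pair was reversed between the ages. psbA made up 15.8% ± 0.26 of the chloroplast counts at 8 days and 34.9% ± 0.30 at 14 days, and rbcL 35.2% ± 0.12 and 24.4% ± 0.50 (SD, n = 3 each, exact permutation p = 0.1, the smallest possible). Without psbA the chloroplast share of CDS counts was 18.24% ± 0.50 at 8 days and 9.99% ± 0.65 at 14 days.

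Most photosystem II genes of the chloroplast fell with rbcL. Of 15 psb entries 12 fell, with a median of −0.87. psbB, which encodes the inner antenna protein CP47, had 14227, 13421 and 13153 CPM against 5378, 5288 and 5577 CPM, a 2.51-fold decrease. The other inner antenna gene, psbC, fell 1.38-fold, and its neighbour psbD, for the D2 protein, fell by 0.37 on the log2 scale. psbT and psbZ, for small subunits, fell 4.08-fold and 3.21-fold. psbN lies on the strand opposite to psbT and psbH, between them, and rose from 173, 182 and 170 CPM to 261, 283 and 287 CPM (log2 0.67 ± 0.07, adjusted p = 5.33e-12), while psbT and psbH fell by 2.03 and 1.66. psbF had 521, 477 and 482 CPM against 546, 534 and 490 CPM and did not pass the test (adjusted p = 0.274), although its neighbours psbE, psbL and psbJ fell by 0.59, 1.05 and 1.28.

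The NADH dehydrogenase-like complex, which feeds electrons back into the chain, had the lowest median of the chloroplast classes at −1.75, with all 12 ndh entries lower. ndhG had 123, 121 and 143 CPM at 8 days and 26.8, 31.97 and 23.5 CPM at 14 days, a 4.78-fold decrease, and ndhJ fell 4.35-fold. Within the ndhH-to-ndhD row of neighbouring genes the fall differed, from 0.90 for ndhH and 2.03 for ndhA to 0.77 for psaC and 1.01 for ndhD on the log2 scale. All 5 psa entries of photosystem I fell (median −0.76), among them psaB, which fell 1.69-fold from 11827, 11638 and 11295 CPM to 7074, 6962 and 6523 CPM, and psaC, which fell 1.70-fold. All 6 entries of the cytochrome b6f complex (pet, median −0.94) and all 6 of the ATP synthase (atp, median −0.78) fell. petA, for cytochrome f, had 1865, 1881 and 1795 CPM against 634, 577 and 584 CPM, a 3.09-fold decrease, and atpF and atpA fell 2.77-fold and 2.31-fold.

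Genes of chloroplast gene expression fell as well. Of 25 entries for plastid ribosomal proteins (rps and rpl) 24 fell, with a median of −1.36, and the other was 1 of the rps12 entries (log2 −0.20 ± 0.10, adjusted p = 0.0910). rpl20 had 246, 259 and 202 CPM at 8 days and 58.3, 61.0 and 48.5 CPM at 14 days, a 4.23-fold decrease. All 4 entries of the plastid RNA polymerase fell (median −1.08), rpoB 2.36-fold and rpoC1 2.28-fold. Among the 11 other entries, all lower, the protease gene clpP fell 3.63-fold and the photosystem I assembly gene ycf3 3.20-fold. accD, for a subunit of acetyl-CoA carboxylase, had 203, 207 and 190 CPM against 146, 150 and 106 CPM, a 1.50-fold decrease. With an offset on GC content and CDS length, accD and psaI turned to an increase (log2 0.27 and 0.41, adjusted p = 0.00105 and 3.14e-06), petG no longer passed the test (log2 −0.08, adjusted p = 0.468), and 75 chloroplast entries were called, 11 higher and 64 lower. rps12, rpl2, rpl23, rps7, ndhB and ycf2 are held in the inverted repeat and share reads between copies.

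**Figure D5:**
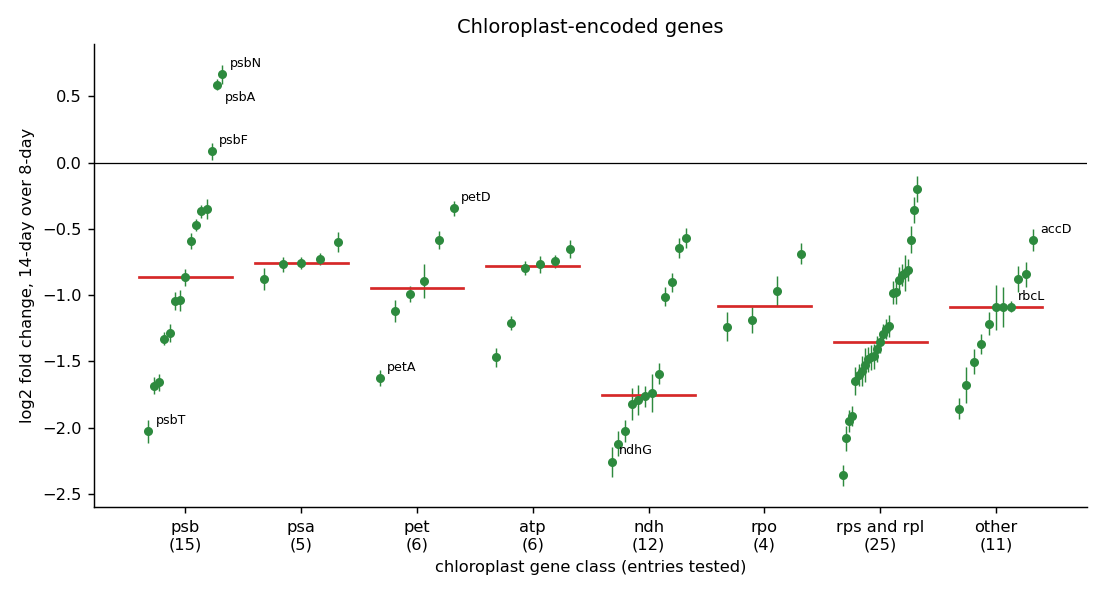
Log2 fold change of 14-day over 8-day seedlings (y axis) of the 84 tested chloroplast entries, grouped by class (x axis, number tested), with standard errors as vertical lines and the class median as a red bar. psbA and psbN lie above 0 beyond their errors, psbF near 0, and the ndh class has the lowest median.

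Of the 40 tested mitochondrial entries 30 fell and 1 rose. ATMG00980 had 6.88, 4.96 and 5.73 CPM at 8 days and 1.97, 2.52 and 1.55 CPM at 14 days (log2 −1.55 ± 0.42, adjusted p = 1.70e-03). It was tested only through its counts in the 8-day libraries. ATMG00110 fell by 1.39 on the log2 scale. ATMG00570 was the entry that rose, from 1.38, 1.13 and 2.56 CPM to 5.12, 5.05 and 4.95 CPM (log2 1.49 ± 0.43, adjusted p = 3.20e-03). ATMG00110 did not pass the test without the 700 U library (adjusted p = 0.0576). A single entry held 53.3% ± 0.74 of the mitochondrial counts at 8 days and 40.7% ± 3.20 at 14 days (SD, n = 3 each). Without it the mitochondrial share was 0.387% ± 0.010 against 0.270% ± 0.020 of the CDS counts, so that the ratio went from 1.81 to 1.44. Reads that match several loci were counted, and whether reads of this leading entry also match the chloroplast genome was not tested. The files and the reference used here do not pair these IDs with names.

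Most of the stress genes that could be tested fell. Of the heat-shock and light-stress list 6 of 14 members were tested and 5 of them fell (median −2.55). None of them had 50 counts in every library. ELIP2, like ELIP1 a protein made under excess light, had 129, 121 and 133 CPM at 8 days and 12.6, 12.2 and 16.4 CPM at 14 days. HSP70 (AT3G12580) fell 5.64-fold, HSP101 6.07-fold and HSP90.1 4.37-fold, while HSA32 did not pass the test. In the cold-regulated list 6 of 9 tested genes fell (COR15A 3.395-fold, LTI78 2.43-fold and ERD10 2.41-fold among them) and 2 rose, KIN1 (log2 0.73) and KIN2 (0.95), with a median of −0.80. Only 2 genes of this list had 50 counts or more in each library. COR413IM1 fell 2.54-fold, but did not pass the test without the 400 U library (adjusted p = 0.0821).

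Of 11 tested genes of jasmonate and defence 4 fell and 3 rose (median −0.47), not far from the 25.1% and 25.3% over all entries, and with at least 50 counts in every library 3 could be tested. LOX2, a lipoxygenase of jasmonate synthesis, had 153, 143 and 140 CPM at 8 days and 16.1, 28.2 and 21.9 CPM at 14 days, a 6.60-fold decrease. AOS, the next enzyme of the route, fell 1.93-fold, the repressor gene JAZ1 4.88-fold and the regulator gene MYC2 by 0.92 on the log2 scale. The myrosinase genes TGG1 and TGG2 rose by 0.85 and 0.77, and the vegetative storage protein gene VSP1 rose 2.23-fold but did not pass the test without the 250 U library (adjusted p = 0.0614).

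Root markers differed between the age groups. Of 14 root markers, 11 were tested, 9 fell and none rose (median −0.996, and 4 of 5 with at least 50 counts in every library). The summed level of all 14 ranged from 2268 to 2340 CPM at 8 days and from 1092 to 1185 CPM at 14 days. Most of this sum was 1 gene, BGLU23, with 1741, 1693 and 1679 CPM at 8 days and 868, 890 and 807.5 CPM at 14 days. IRT1, the iron transporter of the root surface, had 45.6, 44.6 and 43.1 CPM against 9.05, 8.83 and 7.11 CPM. The root beta-glucosidase gene BGLU21 fell 4.14-fold and the aquaporin gene TIP2;3 4.02-fold. SHV2, which is COBL9 of root hairs, had a count ratio of 9.16 of 8-day over 14-day libraries (95% interval 2.96 to 45.8, counting error only), and SHR and PHO1 did not pass the test. SHV2 and TIP2;3 were tested only through their counts in the 8-day libraries. Without any one of the 8-day libraries 9 root markers could be tested and 7 were called. The summed level of the 5 shoot markers ranged from 26352 to 27769 CPM at 8 days and from 29632 to 33913 CPM at 14 days. RBCS1A, LHCB1.3 and GLDP1 rose (log2 0.22, 0.24 and 0.21), and PSAF (−0.11, adjusted p = 0.117) and CA1 (0.05, adjusted p = 0.499) did not pass the test. The part of these organ markers in the gene lists above was not tested.

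Seed reserves were near the limit of detection. None of the 10 seed storage and oil body genes was tested, and their summed level was 5.12 to 5.63 CPM at 8 days and 1.26 to 1.97 CPM at 14 days. All 6 genes of the glyoxylate cycle and fat mobilisation, which turn seed oil into sugar, fell (median −0.63). Without any one of the 8-day libraries 4 of them could be tested, and all 4 were called. The others, ICL among them, were tested only through their counts in the 8-day libraries. ICL, the isocitrate lyase, had 14.0, 11.7 and 11.5 CPM against 1.97, 0.421 and 1.85 CPM, an 8.25-fold decrease, and MLS, the malate synthase, fell 4.32-fold. LACS7 and ACX2, of fatty acid breakdown, fell 1.63-fold and 1.48-fold.

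The slope of each gene on log2 dose within the age groups was fitted to see how far dose moved counts where age, day length and medium were held. A common slope was called for 1 gene (0.00647% of those tested), while 782 (5.06%) had an unadjusted p under 0.05. Fitted alone, the slope of the 8-day libraries was called for 1 gene and that of the 14-day libraries for 40. That gene was AT2G01021, a short gene model in an rRNA repeat near the end of chromosome 2, with 801, 2673 and 6924 counts at 62.5, 125 and 250 U and 3200, 3812 and 3849 counts at 400, 550 and 700 U. Its common slope was 1.04 per doubling of dose (adjusted p = 3.97e-11), with 1.22 in the 8-day libraries and −0.06 in the 14-day libraries (adjusted p = 0.992). The level of AT2G01021 was 2.196-fold higher at 14 days by edgeR (adjusted p = 1.05e-06), but by DESeq2 the adjusted p was 0.168.

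The counted sequence of AT2G01021 (chr2:6571-6669, plus strand, RefSeq TAIR10.1) is shown because one of the rRNA depletion oligos of the study, Nu_25S_4, is complementary to the part in capitals (chr2:6626-6667). The oligo was not used on these 6 libraries. The sequence occurs 2 times on chromosomes 1 to 5.
AT2G01021: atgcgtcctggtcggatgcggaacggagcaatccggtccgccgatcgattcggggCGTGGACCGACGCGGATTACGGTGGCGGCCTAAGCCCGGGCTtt
Nu_25S_4: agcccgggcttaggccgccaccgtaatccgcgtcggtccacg
The oligo's name gives the nuclear-encoded 25S rRNA as its target.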

How the data were processed

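The counts per CDS entry that the authors deposited were used for the 6 libraries, with their deposited totals of reads after trimming, rRNA reads and chloroplast reads per library, which are whole numbers as well. The authors trimmed reads with cutadapt, removed rRNA, tRNA and snoRNA reads and aligned the rest to TAIR10 (Ensembl Plants annotation) with STAR, and counted sense reads over CDS with featureCounts, including reads that match several loci. No version of cutadapt, STAR or featureCounts is given in the sources used here. The deposited counts are not normalized; the authors' TMM normalization came after them. MNase libraries entered 1 alternative only; the other libraries were not analysed here.

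Counts were tested with edgeR 4.0.16 (R 4.3.3, limma 3.58.1): TMM, quasi-likelihood test, a minimum of 10 counts in 3 libraries, and Benjamini-Hochberg adjustment over all 15460 entries tested, with 0.05 as the threshold. DESeq2 1.42.0 was another tool. Shares were compared by 2-sided exact permutation tests (scipy 1.17.1). Tested on simulated data for the 14-day against 8-day comparison (15460 genes), edgeR recovered 46, 66, 94 and 98% of genes changed 1.5, 2, 3 and 4-fold, with 6 unchanged genes called. Each fold was given to 50 genes, a far smaller share than the 50.4% of entries called in the data. These rates therefore need not hold for the data. Depth per library stands in the report; a count of 10 carries a wide relative error, and intervals cover counting error only. Python 3.11.15, pandas 2.3.3, numpy 2.4.6 and matplotlib 3.10.9 handled tables and plots.

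The members and lists were chosen with earlier results of these data known. Named genes are the 10 nuclear genes with the largest change in each direction (past the test, 50 counts or more on average, no overlap of the groups), up to 4 members of each list with the largest change, chloroplast genes fixed by name or with the largest change of their class, up to 2 mitochondrial entries in each direction, the 5 nuclear and 5 chloroplast genes with the highest level, 5 genes whose coverage the study shows, and AT2G01021. Of the genes picked in this way, 1 is left out here. Further members of small counts or exceptions within a list were named after their values were seen. Ribosomal protein lists were taken from products and notes of the annotation, and may hold related proteins. The counted CDS intervals matched TAIR10.1 from RefSeq (99.98% identical or shorter by a stop codon), from which nuclear windows and sequences were read; 10361 entries had a RefSeq symbol, and 86 of 88 chloroplast entries were named by coordinates.

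Alternatives covered DESeq2, other scaling, count filters, thinning, dose as a covariate, the MNase libraries as a further group and leaving out each library. They also covered an offset on GC content and CDS length (no GC values for mitochondrial entries) and a test of a fold above 1.5. The dose covariate was centred within each age group, so it could not adjust for the difference in dose between the groups. The shares without psbA or the leading mitochondrial entry and the count without nuclear entries that share organelle sequence were chosen after seeing the data.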

Additional observations from a re-analysis of the deposited data

How the results depend on the processing

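The number of genes that changed went from 7796 to 4019 (2058 higher, 1961 lower) with at least 50 counts in every library and to 3150 (1578 higher, 1572 lower; 20.4% of those tested) in a test of a fold above 1.5, and was within 1.5 times of 7796 under the other alternatives run. DESeq2 called 6460 genes, all of them also called by edgeR with the same sign (82.9% of edgeR's calls). Without each library in turn the number was 6605 to 7000, and 82 to 83 chloroplast entries, 25 to 27 mitochondrial entries and 350 to 386 list members were called. Mitochondrial calls went from 31 to 18 (0 higher, 18 lower) with at least 50 counts in every library. With an offset on GC content and CDS length, 75 chloroplast entries were called (11 higher, 64 lower) against 82 (2 higher, 80 lower); accD and psaI turned to an increase (0.27 and 0.41), and the cause was not tested. For mitochondrial entries this check is void, since they have no GC values here. The dose slope was called for 1 gene by the common slope, for 0 by DESeq2 (140 at an unadjusted p under 0.05), for 40 by the slope of the 14-day libraries alone, and for 0 (without the 62.5 U library) to 7 (without the 700 U library) genes when each library was left out. Leaving out each library moved the chloroplast share difference between −6.68 and −5.89 points, the mitochondrial one between −0.387 and −0.338, the rRNA one between 5.84 and 8.81 and that of chloroplast reads between −7.95 and −7.12. Of 1802 values of the 129 named genes under alternatives, 1793 kept direction and side of the threshold, 6 lost the test, 1 gained it (RBCS3B) and 2 reversed; of 315 list counts 303 stayed within 1.5 times. The list counts that did not were, with at least 50 counts in every library, sugar starvation (16 to 10), sugar-induced and anthocyanin (18 to 4), histones (18 to 10), cell division (12 to 2), heat-shock and light-stress (5 to 0), cold-regulated (8 to 2), jasmonate and defence (7 to 3) and root markers (9 to 4). The sugar-induced list also went from 18 to 9 without any of the 8-day libraries, since 10 members were then tested. With at least 1 count in any library, 2 seed genes were called instead of 0. No paired analysis was possible because the labels give the 6 libraries no shared replicate numbers. Depth limits genes near 10 counts, mostly in the 14-day libraries, and with 3 libraries a group the exact test cannot go below 0.1.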

Other observations

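The slope of the 14-day libraries alone was called by edgeR for 40 genes, 29 rising and 11 falling with dose between 400 and 700 U, while the slope of the 8-day libraries was called for 1. Among the rising genes were the cell wall genes EXT4 (1.84 per doubling of dose), EXT3 (1.28), AGP9 (1.199) and AGP21 (1.01), the antenna genes LHCB6 (0.46), LHCA4 (0.41), LHB1B1 (0.57) and LHB1B2 (0.49), and several glycine-rich proteins such as GRP23 (0.81). Among the falling genes were the chloroplast entries rps18 (−1.05), rpoA (−1.07), rpl22 (−1.02), rps3 (−0.86), psbI (−0.60) and atpF (−0.52). Apart from rpoA, these 400 and 550 U values were close together and only the 700 U library was clearly lower. In order of dose rps18 had 183, 171 and 96.7 CPM, rpl22 154, 148 and 83.1 CPM, and rps3 109, 109 and 64.3 CPM. Likewise psbI had 283, 286 and 198 CPM and atpF 507, 514 and 371 CPM, while rpoA had 72.0, 55.9 and 38.9 CPM. These slopes rest on 3 libraries, and genes were named after their values were seen.

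AT2G07732, a nuclear entry annotated with a Rubisco large chain domain (chr2:3468427-3468774), had 3944, 3686 and 3726 CPM at 8 days and 1544, 1454 and 1064 CPM at 14 days (log2 −1.49 ± 0.07, adjusted p = 5.41e-27). Of its 28-base windows, 47.4% occur in the chloroplast genome and 91.3% in the mitochondrial genome. In all, 96 nuclear entries share over 20% of such windows with an organelle genome; 22 of them were tested, 13 fell and 0 rose.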
